A study of Mus musculus with 10 samples.

Results

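Matrix metalloproteinases (Mmps), Adams, Adamts proteases and their tissue inhibitors (Timps) were followed through the reprogramming of mouse embryonic fibroblasts (MEFs) toward induced pluripotent stem cells. Members were taken by gene name, as every Mmp, Timp, Adam and Adamts with a number in its symbol. This gave 79 genes of 48476 in the series, namely 23 Mmps, 4 Timps, 33 Adams and 19 Adamts genes. MEFs of strain CBA/CaJ X C57BL/6J came from E13.5 embryos and, per the methods, carried an Oct4-GFP reporter. All of them were infected with retroviruses from PlatE cells for Oct4, Klf4 and Sox2 (OKS) and grown in iCD1 medium. One arm also received FoxO6 (OKS + FoxO6) and the control arm DsRed, a red fluorescent protein (OKS + DsRed, labelled DR). Each arm gave 1 RNA-seq library at days 0, 1, 3, 5 and 7, so there were 10 libraries and no replicates of any arm on a day. The control cells therefore carried the same 3 reprogramming factors, and each library was made from a whole culture without sorting stated.

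Mmps cut collagens and other proteins of the extracellular matrix, some after secretion and some while anchored in the membrane. Adams are membrane proteins, several of which release the outer parts of growth factors and receptors from the cell surface. Adamts proteases are secreted, and different ones trim procollagens or cut the large proteoglycans aggrecan and versican. Timps bind to the active site of these enzymes and block it. Fibroblasts are a main source of both the enzymes and the inhibitors, and they lose their matrix program as they move toward an epithelial and then a pluripotent state.

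Each library held 1208379 to 2225750 expected counts, which is shallow, and 28 of the 79 members had enough counts to be tested. Foxo6 had a TPM (a level that allows for transcript length and library size) of 0.61 to 2.29 in the OKS + DsRed libraries. In OKS + FoxO6 it had a TPM of 762.11 to 1356, and day 0 was already at 1017, so day 0 was not a time before the factor was expressed. All 10 markers of fibroblasts fixed for this comparison were detected, which fits the label of the cells.

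For the shift between the arms, the 5 days served as 5 pairs of libraries, with a term for each day, in the quasi-likelihood test of edgeR. An adjusted p under 0.05, Benjamini-Hochberg over 10977 genes, was the threshold. Whether all days of an arm were sampled from a single infection is not stated, so the p-values speak for these 2 courses only. By this test 9 of the 28 tested members (32.1%) differed between the arms, against 14.1% of all genes tested. Of these, 5 members (17.9%) were higher in OKS + FoxO6, against 6.93% of all genes. The other 4 members (14.3%) were lower, against 7.13% of all genes. The higher members were Adamts5, Adamts1, Mmp2, Adam9 and Timp1, and the lower members were Timp3, Adam19, Adamts3 and Adam23. The median log2 fold change of the tested members was -0.14, beside -0.02 for all genes.

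Day 7 was compared with day 0 in the same fit, over both arms. Each day had 1 library of each arm, and these are not replicates of the same condition. Here 12 of the 28 members (42.9%) differed, against 21.2% of all genes. At day 7, 3 members (10.7%) were higher, against 11.2% of all genes, and 9 members (32.1%) were lower, against 10.1%. The members' median log2 fold change was -0.38, beside 0.03 for all genes.

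**Figure D1:**
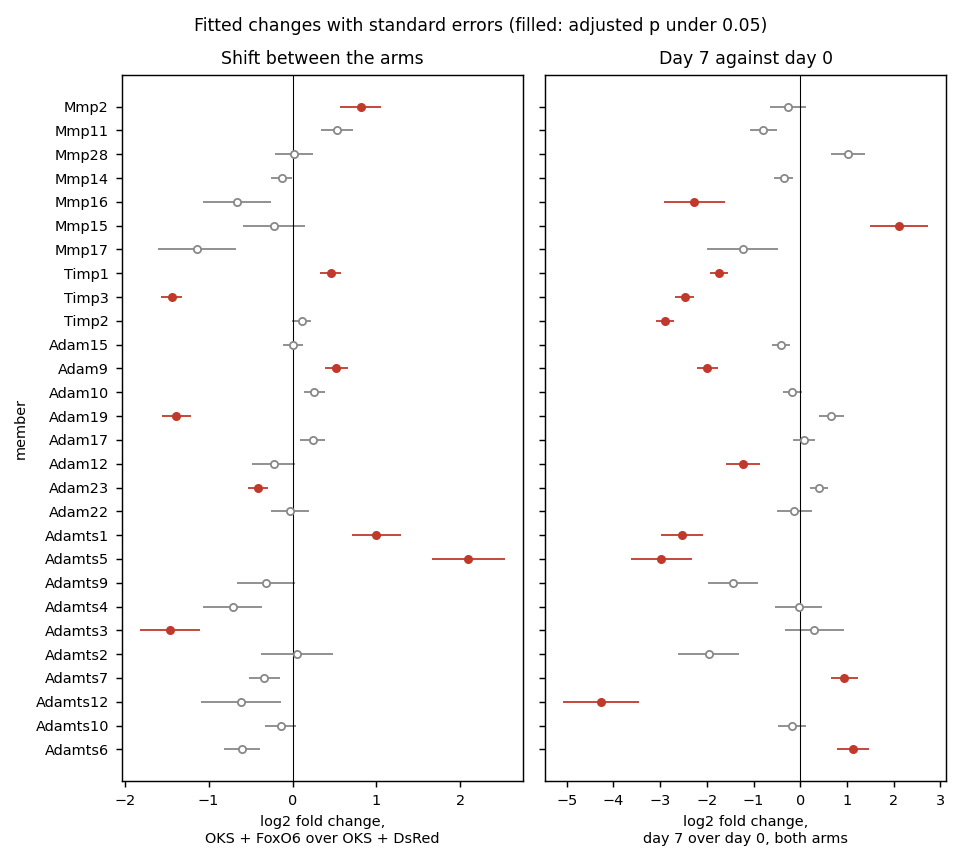
Log2 fold changes of the 28 tested members (points) with standard errors (bars) from edgeR's quasi-likelihood test, for OKS + FoxO6 over OKS + DsRed across the 5 days (left) and day 7 over day 0 across both arms (right). Filled red points are the 9 members (left) and 12 members (right) with an adjusted p under 0.05. Timp3 sits far to the left in both panels and Adamts5 lies to the right in the first and to the left in the second.

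Among the Timps, Timp3 was lower and Timp1 higher in OKS + FoxO6, and all 3 tested Timps fell from day 0 to day 7. Timp3 (ENSMUSG00000020044), the inhibitor that stays bound to the extracellular matrix and also blocks Adam17, lies at 86300372 to 86349506 of chromosome 10 (GRCm38, plus strand). Its TPM was 507, 373, 261, 129 and 119 in OKS + DsRed over days 0, 1, 3, 5 and 7. In OKS + FoxO6 it was 264, 137, 75.03, 53.8 and 37.8 on the same days. OKS + FoxO6 was the lower arm on every day. The log2 fold change between the arms was -1.44 (SE 0.12, adjusted p = 7.57e-05, edgeR), a level 2.71-fold lower. The ratio of counts scaled to library size was 0.471 at day 0 (95% exact interval 0.438 to 0.507, counting error only) and 0.369 at day 7 (0.306 to 0.442).

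Timp1 (ENSMUSG00000001131), a secreted inhibitor of most Mmps and of Adam10, moved the other way between the arms. It lies at 20870166 to 20874735 of chromosome X (plus strand). In OKS + DsRed its TPM was 654, 596, 279, 205 and 175 at days 0, 1, 3, 5 and 7, and in OKS + FoxO6 it was 910, 683, 369, 330 and 282. OKS + FoxO6 was higher on every day, with a log2 fold change of 0.45 (SE 0.12, adjusted p = 0.0344, edgeR). That call was held under 4 of 11 alternatives, and the adjusted p ranged from 0.0108 to 0.753.

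Timp2, which besides blocking Mmps helps Mmp14 to activate pro-Mmp2, had a TPM of 347, 192, 127, 59.6 and 49.9 in OKS + DsRed. Its TPM in OKS + FoxO6 was 405, 204, 122, 82.3 and 59.3. The arms differed by 0.11 on the log2 scale (SE 0.11, adjusted p = 0.601, edgeR), which does not show that they were alike. Timp4, best known from heart and fat, was listed with 0, 0, 4, 1 and 0 counts in OKS + DsRed and 3, 0, 4, 4 and 2 in OKS + FoxO6, too few to be tested.

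Timp3 made up 33.6%, 32.1%, 39.0%, 32.7% and 34.7% of the summed TPM of the 4 Timps in OKS + DsRed over days 0, 1, 3, 5 and 7. In OKS + FoxO6 its share was 16.7%, 13.4%, 13.2%, 11.5% and 9.94%. On every day the share was lower in OKS + FoxO6, with 1 library of each arm per day. Timp1 held 41.8% to 52.0% of the sum in OKS + DsRed and 57.6% to 74.1% in OKS + FoxO6. The summed TPM itself was close in both arms, with 1509 and 1580 at day 0 and 344 and 381 at day 7.

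**Figure D2:**
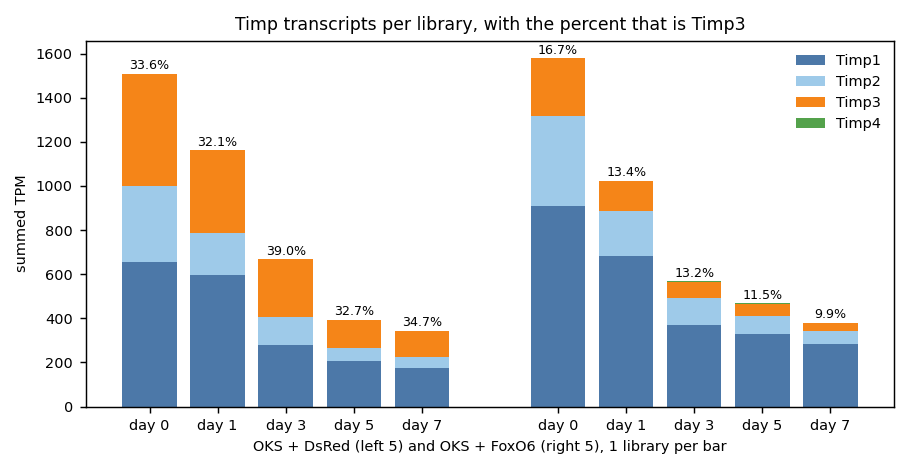
Summed TPM of Timp1, Timp2, Timp3 and Timp4 in each library (1 bar per library, days 0 to 7 in OKS + DsRed on the left and OKS + FoxO6 on the right), with the percent that is Timp3 above each bar. The bars shrink from 1509 to 344 and from 1580 to 381, and the Timp3 part stays at 32.1% to 39.0% on the left and 9.94% to 16.7% on the right.

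All 3 tested Timps were lower at day 7 than at day 0 in the shared course. Timp2 fell by 2.89 on the log2 scale (SE 0.19, adjusted p = 4.49e-06, edgeR). Timp3 fell by 2.47 (SE 0.20, adjusted p = 1.62e-05, edgeR) and Timp1 by 1.74 (SE 0.20, adjusted p = 0.000137, edgeR). The summed TPM of the Mmps, Adams and Adamts genes, without Adam11, Adam22 and Adam23, which are no proteases, was 0.835 times that of the Timps at day 0 in OKS + DsRed and 2.95 times at day 7. In OKS + FoxO6 the same ratio was 0.951 and 2.73. The fibroblast markers moved with these values. All 10 (Col1a1, Col1a2, Col3a1, Thy1, Pdgfra, Pdgfrb, Twist1, Twist2, Prrx1 and Fn1) were lower at day 7, none was at 0, and their summed TPM was 5680 and 1407 in OKS + DsRed on days 0 and 7. It was 5997 and 1810 in OKS + FoxO6. In these bulk samples fewer fibroblasts and less RNA per fibroblast cannot be told apart, and the part of the markers in the fall of the Timps was not tested.

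The 250 bases before the start of each gene were read from RefSeq for GRCm38.p6, and 49 of the 79 members had such a window. Bases that the GENCODE gene model already covers were left out, which leaves 210 bases for Timp3. The window of Timp3 (chr10:86300162-86300371, plus strand) is shown because this gene had the smallest adjusted p of the members between the arms, and that of Timp1 (chrX:20869916-20870165, plus strand) because it moved the other way. Capitals mark a forkhead core or an AP-1 site where one is present, and neither window holds one.
Timp3: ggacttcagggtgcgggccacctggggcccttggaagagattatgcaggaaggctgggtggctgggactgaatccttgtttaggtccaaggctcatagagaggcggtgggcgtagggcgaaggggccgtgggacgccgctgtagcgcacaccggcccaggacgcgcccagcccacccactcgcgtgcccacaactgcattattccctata
Timp1: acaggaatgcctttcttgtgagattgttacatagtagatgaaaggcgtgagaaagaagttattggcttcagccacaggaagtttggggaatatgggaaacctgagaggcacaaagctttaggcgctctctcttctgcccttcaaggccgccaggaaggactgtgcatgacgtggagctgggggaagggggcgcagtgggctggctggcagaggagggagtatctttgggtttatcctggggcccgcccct

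Among the Adamts proteases that cut aggrecan and versican, 4 of 7 were tested. Adamts1 and Adamts5 were higher in OKS + FoxO6, while Adamts4 and Adamts9 did not pass the threshold, with log2 fold changes of -0.71 and -0.32. Adamts5 (ENSMUSG00000022894), the main aggrecanase of mouse cartilage, lies at 85856173 to 85901828 of chromosome 16 (minus strand). Its expected counts were 82, 21, 5, 5 and 4 in OKS + DsRed over days 0, 1, 3, 5 and 7 and 244, 56, 115, 78 and 49 in OKS + FoxO6. As TPM these were 15.8, 3.46, 0.85, 0.91 and 0.51 in OKS + DsRed and 27.6, 8.48, 14.7, 9.58 and 6.81 in OKS + FoxO6. OKS + FoxO6 was higher on all 5 days, and from day 3 the control arm had only 4 or 5 counts. The log2 fold change was 2.10 (SE 0.43, adjusted p = 0.00925, edgeR), or 4.27-fold. With each day left out it ranged from 1.77 (without day 7) to 2.85 (without day 0), and with no day term it was 1.59 (adjusted p = 0.386, edgeR). At day 0 the ratio of scaled counts was 1.58 (95% exact interval 1.22 to 2.05), and at day 3 it was 16.9 (7.05 to 53.1).

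Adamts1 (ENSMUSG00000022893) is a secreted versicanase with thrombospondin repeats. It had a TPM of 60.3, 21.4, 7.1, 7.26 and 8.87 in OKS + DsRed. In OKS + FoxO6 its TPM was 69.1, 17.9, 26.2, 35.9 and 15.8. At days 0 and 1 the ratios of scaled counts were 0.993 (95% exact interval 0.829 to 1.19) and 1.24 (0.854 to 1.81). OKS + FoxO6 had the higher TPM on 4 days and the lower at day 1. TPM and scaled counts thus differed in direction at days 0 and 1. The log2 fold change was 1.00 (SE 0.29, adjusted p = 0.0425, edgeR), and it was past the threshold under 5 of 11 alternatives (adjusted p up to 0.71).

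Both genes fell over the shared course, Adamts5 by 2.97 on the log2 scale at day 7 against day 0 (SE 0.65, adjusted p = 0.00731, edgeR) and Adamts1 by 2.54 (SE 0.45, adjusted p = 0.00201, edgeR). They are neighbours on chromosome 16, both on the minus strand. Adamts1 runs from 85793827 to 85803113, and 53059 bases lie between the genes, with 1 annotated gene between them (4930556C24Rik), which codes for no protein. The window before Adamts1 (chr16:85803114-85803363, minus strand) is shown as that of a member that was higher in OKS + FoxO6, and no searched motif is in it.
Adamts1: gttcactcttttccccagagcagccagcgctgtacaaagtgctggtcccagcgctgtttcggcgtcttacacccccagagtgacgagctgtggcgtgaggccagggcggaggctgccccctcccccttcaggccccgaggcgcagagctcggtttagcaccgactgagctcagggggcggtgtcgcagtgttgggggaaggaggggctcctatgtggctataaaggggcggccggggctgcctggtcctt

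Of the proteoglycans that these enzymes cut, 1 of 4 was tested. Vcan, the gene of versican, fell by 3.55 on the log2 scale at day 7 (SE 0.31, adjusted p = 2.43e-05, edgeR). Between the arms its log2 fold change was -0.57 (SE 0.18, adjusted p = 0.0587, edgeR).

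The procollagen N-proteinases remove the amino-terminal propeptide of fibrillar collagens, and 2 of 3 were tested. Adamts3 (ENSMUSG00000043635), which also activates the lymphatic growth factor VEGF-C, lies at 89677087 to 89883334 of chromosome 5 (minus strand). Its TPM was 3.96, 12, 20.1, 9.05 and 7.14 in OKS + DsRed. In OKS + FoxO6 it was 2.34, 3.14, 2.65, 7.88 and 1.73. The TPM of the control arm was highest at day 3 and that of the other arm at day 5. The log2 fold change was -1.46 (SE 0.36, adjusted p = 0.0207, edgeR), held under 7 of 11 alternatives. The adjusted p in edgeR was 0.073 without day 1, 0.113 without day 3, 0.135 with no day term and 0.0643 with day as a straight line. Adamts2 had a TPM of 0.57 to 5.37 in OKS + DsRed and 0.62 to 3.65 in OKS + FoxO6, with a log2 fold change of 0.05 between the arms (SE 0.43).

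Adamts7 and Adamts12 share a domain layout and both cut the cartilage protein COMP. No difference between the arms passed the threshold for either, and over the days they went opposite ways. Adamts12 had counts of 23, 37, 12, 1 and 1 in OKS + DsRed and 53, 11, 5, 3 and 3 in OKS + FoxO6. It fell by 4.26 on the log2 scale at day 7 against day 0 (SE 0.81, adjusted p = 0.00326, edgeR), and this call was held under all 7 alternatives that gave a value. Adamts7, the Adamts gene with the highest mean TPM, had a TPM of 73.9, 132, 180, 77.5 and 90.7 in OKS + DsRed and 38.01, 86.4, 122, 110 and 113 in OKS + FoxO6. It was higher at day 7 by 0.95 (SE 0.30, adjusted p = 0.0430, edgeR), a call held under 4 of 8 alternatives (adjusted p up to 0.17). Tbc1d2b overlaps Adamts7 on the other strand, and the counting is not stated to use strand.

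Of the remaining Adamts genes, Adamts6 and Adamts10 were tested. Adamts6 had a TPM of 5.2, 8.6, 15.3, 18.1 and 17.3 in OKS + DsRed and 5.33, 5.11, 8.4, 17.4 and 7.27 in OKS + FoxO6. It was higher at day 7 by 1.13 on the log2 scale (SE 0.35, adjusted p = 0.0387, edgeR), held under 3 of 8 alternatives. Adamts10, a partner of the microfibril protein fibrillin, had a TPM of 16.9, 22.8, 25.4, 18.5 and 24.5 in OKS + DsRed and 23.9, 21.1, 28.03, 30.0 and 13.8 in OKS + FoxO6, with no call in any test.

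Mmp transcripts were dominated by the membrane-anchored collagenase Mmp14 and the gelatinase Mmp2, which together held 80.5% to 86.4% of the summed Mmp TPM in every library. Mmp2 (ENSMUSG00000031740) lies at 92827291 to 92853420 of chromosome 8 (plus strand). Its TPM was 93.9, 98.1, 102, 86.0 and 41.8 in OKS + DsRed and 127, 116, 126, 179 and 151 in OKS + FoxO6. OKS + FoxO6 was higher on every day, with a log2 fold change of 0.81 (SE 0.24, adjusted p = 0.0482, edgeR). This p was close to the threshold, and the call was held under 4 of 11 alternatives (adjusted p up to 0.176). The ratio of scaled counts was 1.31 at day 0 (95% exact interval 1.10 to 1.58) and 4.38 at day 7 (3.55 to 5.46).

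Mmp14, which activates pro-Mmp2 at the cell surface, had a TPM of 347, 396, 408, 271 and 297 in OKS + DsRed. Its TPM was 390, 272, 322, 322 and 262 in OKS + FoxO6. Its log2 fold change was -0.13 between the arms (SE 0.13, adjusted p = 0.572, edgeR) and -0.36 at day 7 against day 0 (SE 0.20, adjusted p = 0.247, edgeR). Of all members it ranked second by mean TPM in both arms, behind Timp1, and it did not follow the Timps past the threshold.

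The other membrane-type Mmps were low. Mmp15 had counts of 4, 7, 12, 27 and 15 in OKS + DsRed and 5, 4, 11, 26 and 26 in OKS + FoxO6, and it was higher at day 7 by 2.12 on the log2 scale (SE 0.62, adjusted p = 0.0329, edgeR). Mmp16 had counts of 12, 22, 19, 2 and 7 in OKS + DsRed and 27, 13, 8, 5 and 2 in OKS + FoxO6. The test on counts gave a fall of 2.27 over both arms (SE 0.66, adjusted p = 0.0303, edgeR). In TPM the control arm did not fall, with 5.45 at day 0 and 5.71 at day 7, against 5.49 and 0.66 in OKS + FoxO6. With DESeq2 neither passed, with adjusted p of 0.0621 for Mmp15 and 0.0543 for Mmp16. Mmp17, anchored by a lipid, had a TPM of 1.94 to 4.69 in OKS + DsRed and 0.35 to 2.68 in OKS + FoxO6, with a log2 fold change between the arms of -1.14 (SE 0.46, adjusted p = 0.135, edgeR).

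Of the 17 secreted Mmps, 3 were tested, and Mmp11 and Mmp28 followed Mmp2 in mean TPM. Mmp11, a stromal stromelysin, had a TPM of 35.8, 32.6, 44.5, 22.4 and 16.6 in OKS + DsRed and 57.8, 43.03, 40.3, 24.2 and 38.8 in OKS + FoxO6 (log2 fold change 0.53, SE 0.19, adjusted p = 0.0869, edgeR). Mmp11 overlaps Chchd10 on the other strand. Mmp28, or epilysin, had a TPM of 11.7, 9, 34.9, 38.9 and 16.04 in OKS + DsRed and 8.24, 13.3, 26.9, 32.9 and 24.9 in OKS + FoxO6, and at day 7 its log2 fold change was 1.02 (SE 0.37, adjusted p = 0.0762, edgeR).

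Of the 9 Adams with a catalytic site and expression in body tissues, 6 were tested. Adam19 (ENSMUSG00000011256), which sheds neuregulins and is needed for heart development, lies at 46055992 to 46147343 of chromosome 11 (plus strand). Its TPM was 33.6, 77.8, 126, 91.7 and 88.8 in OKS + DsRed over days 0, 1, 3, 5 and 7. In OKS + FoxO6 it was 27.1, 28.1, 43.4, 31.8 and 25.4. At day 0 the ratio of scaled counts was 0.713 (95% exact interval 0.568 to 0.896), and from day 1 OKS + FoxO6 was lower by 2.77-fold, 2.91-fold, 2.88-fold and 3.49-fold in TPM. The log2 fold change over the 5 days was -1.38 (SE 0.17, adjusted p = 0.000505, edgeR). It was the only member whose call in the shift was held under all 11 alternatives.

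The window before Adam19 (chr11:46055734-46055983, plus strand) is shown because it was the only one of the 6 such windows of called members with a searched motif, an AP-1 site in capitals that starts 131 bases before the RefSeq start.
Adam19: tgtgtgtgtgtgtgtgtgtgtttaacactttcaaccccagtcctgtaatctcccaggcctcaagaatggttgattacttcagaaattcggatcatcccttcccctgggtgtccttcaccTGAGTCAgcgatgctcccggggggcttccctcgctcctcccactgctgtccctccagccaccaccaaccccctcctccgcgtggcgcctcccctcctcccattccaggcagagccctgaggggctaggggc

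Adam9 (ENSMUSG00000031555), a sheddase of several growth factor precursors, was higher in OKS + FoxO6. It lies at 24949611 to 25016927 of chromosome 8 (minus strand). Its TPM was 174, 217, 97.4, 62.9 and 48.1 in OKS + DsRed and 245, 256, 182, 125 and 52.9 in OKS + FoxO6. OKS + FoxO6 was the higher arm on all 5 days, with a ratio of scaled counts of 1.21 (95% exact interval 0.979 to 1.49) at day 7. The log2 fold change between the arms was 0.52 (SE 0.14, adjusted p = 0.0302, edgeR), held under 7 of 11 alternatives. Over the shared course Adam9 fell by 1.99 (SE 0.23, adjusted p = 0.000126, edgeR), held under all 8 alternatives.

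Adam10 and Adam17, the main sheddases of Notch receptors and of TNF, passed no test. Adam10 had a TPM of 81.5 to 116 in OKS + DsRed and 75.7 to 167 in OKS + FoxO6. Adam17 had 22.01 to 44.1 and 32.1 to 58.4. Adam15, the Adam with the highest mean TPM, had a TPM of 190, 303, 240, 186 and 171 in OKS + DsRed and 236, 288, 241, 223 and 180 in OKS + FoxO6, with a log2 fold change of 0.00 between the arms (SE 0.12). Adam12, known from muscle and fat precursors, had a TPM of 13.2, 2.08, 2.34, 7.75 and 9.31 in OKS + DsRed and 15.9, 4.24, 2.29, 8.02 and 3.37 in OKS + FoxO6. It fell by 1.22 at day 7 against day 0 (SE 0.36, adjusted p = 0.0316, edgeR), and in OKS + DsRed days 1 and 3 were lower still than day 7.

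Adam11, Adam22 and Adam23 have no protease activity and are best known as receptors for LGI proteins in neurons. Adam23 (ENSMUSG00000025964), at 63445891 to 63596276 of chromosome 1 (plus strand), was among the 5 members of highest mean TPM in OKS + DsRed. Its TPM was 128, 219, 263, 267 and 207 there and 150, 153, 179, 229 and 132 in OKS + FoxO6. OKS + FoxO6 was lower in TPM on 4 days and higher at day 0, where the ratio of scaled counts was 0.973 (95% exact interval 0.855 to 1.11). The test on counts gave a log2 fold change of -0.42 (SE 0.12, adjusted p = 0.0426, edgeR), held under 6 of 11 alternatives (adjusted p up to 0.337). Of the 7 neural markers 3 were tested and 2 of these, Tubb3 and Syt1, were also lower in OKS + FoxO6. Their summed TPM was 83.8 to 211 in OKS + DsRed and 35.98 to 92.7 in OKS + FoxO6, with Rbfox3 at no more than 3 counts, and their part in the difference of Adam23 was not tested. Adam22 had a TPM of 4.68 to 15.6 in OKS + DsRed and 5.95 to 25.4 in OKS + FoxO6 and passed no test.

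**Figure D3:**
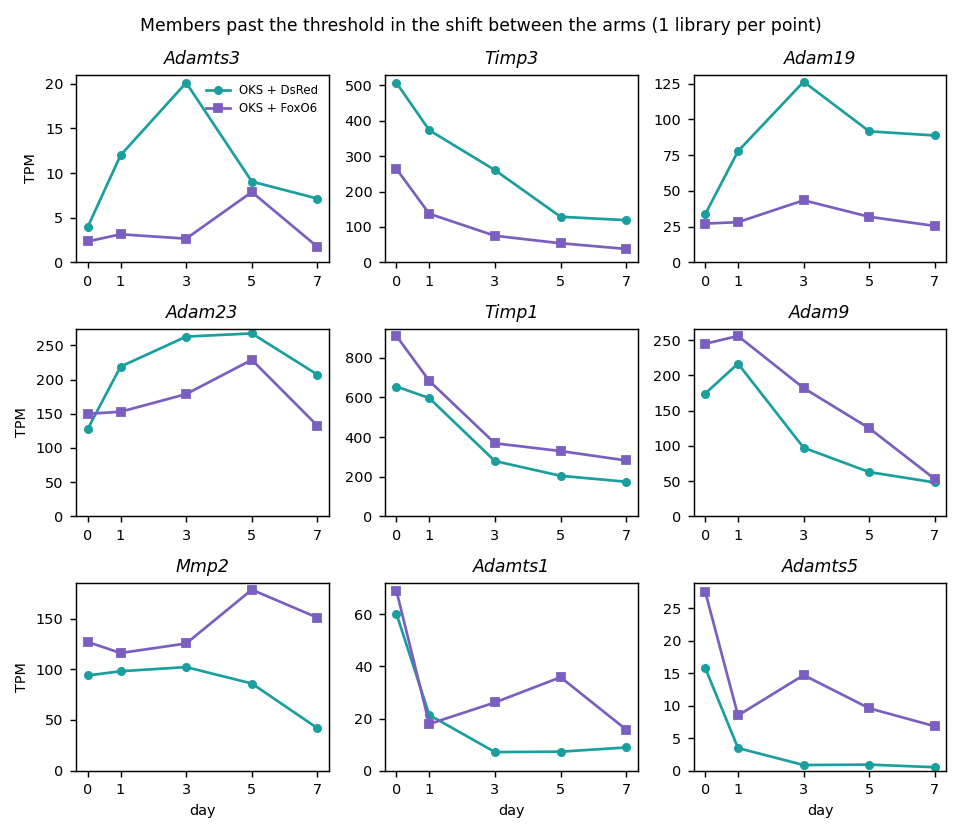
TPM (vertical axis, from 0) against day for the 9 members past the threshold in the shift between the arms, with 1 library per point, circles for OKS + DsRed and squares for OKS + FoxO6. Timp3 and Adam19 lie lower in OKS + FoxO6 on all 5 days, Timp1, Adam9, Mmp2 and Adamts5 lie higher on all 5, and Adamts1 separates from day 3.

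The alternatives sorted these 9 calls. Adam19 was called under all 11, Timp3 and Adamts5 under all but the fit with no day term, and every one of the 9 had the same sign under all 11. Without day 3 or without day 5, 1 of the 5 higher members (Adamts5) stayed past the threshold. Without day 1 or without day 3, 2 of the 4 lower members (Timp3 and Adam19) did. Without day 7, 3 of the 5 higher members did. In edgeR with no day term the adjusted p was 0.288 for Timp3 and 0.386 for Adamts5. Of the 9 falls from day 0 to day 7, 5 were not past the threshold in edgeR with no arm term, namely those of Timp3, Adamts1, Adamts5, Mmp16 and Adam12 (adjusted p = 0.103, 0.0756, 0.27, 0.104 and 0.0919). With DESeq2 that of Adam12 had an adjusted p of 0.0538.

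**Figure D4:**
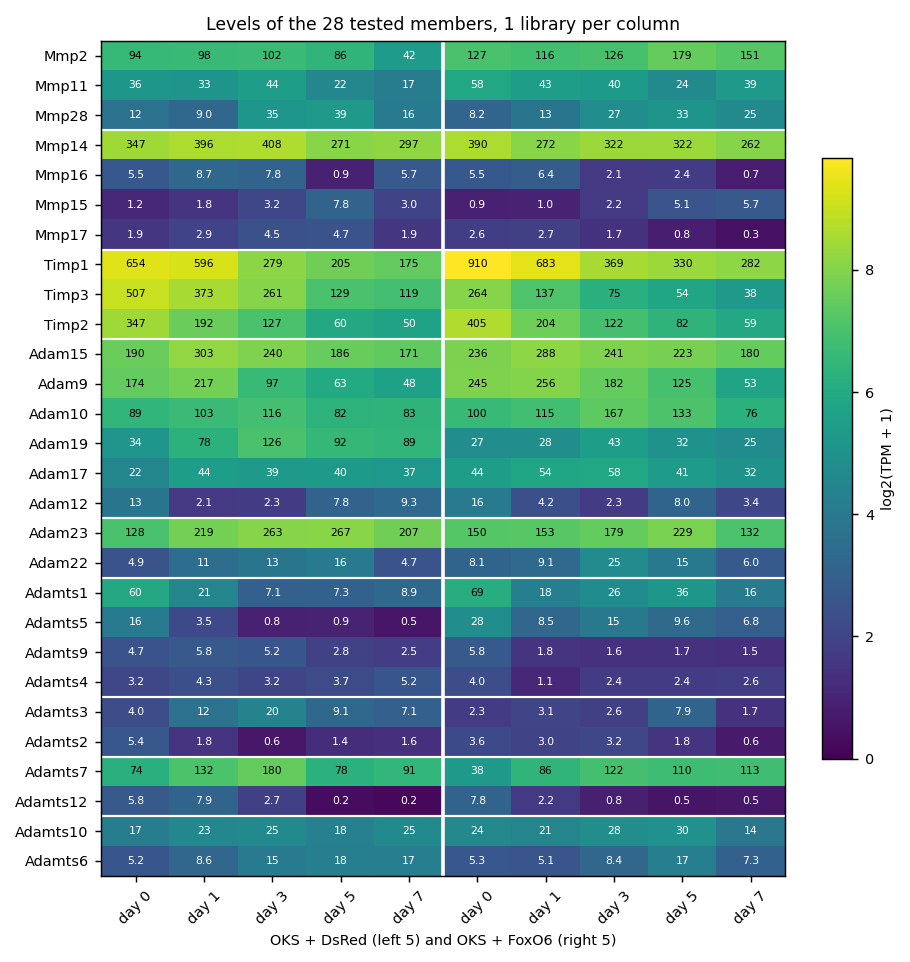
TPM of the 28 tested members in each of the 10 libraries, printed in each cell and coloured by log2(TPM + 1), with days 0 to 7 of OKS + DsRed on the left and of OKS + FoxO6 on the right, and white lines between the roles. Timp1, Timp3, Timp2, Mmp14, Adam15 and Adam23 hold the brightest rows, and the Timp rows darken toward day 7 in both arms.

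Whether the arms drew apart over the days was asked with the difference of their slopes in log2 per day. No member passed in edgeR, and neither did any other gene (0% of 10977). At an unadjusted p under 0.05 there were 3 members of 28, against 8.69% of all genes (954 genes), and DESeq2 called 33 genes, none of them a member. The 3 members were Mmp2 with a difference of 0.25 per day (SE 0.06, adjusted p = 0.397, edgeR), Adamts5 with 0.59 (adjusted p = 0.482) and Mmp17 with -0.40 (adjusted p = 0.504).

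On single days there was no replicate, and a member was counted when its log2(TPM + 1) differed by more than 1 (2-fold), where at least 1 of the pair of libraries had a TPM of 1 or more. At day 0, 6 of 42 members were higher in OKS + FoxO6 (14.3% of all genes were) and 3 were lower (9.22% of all genes). Day 1 had 5 of 43 higher (all genes, 11%) and 8 lower (all genes, 13.1%). Day 3 had 9 of 43 higher (all genes, 11.2%) and 8 lower (all genes, 15.2%). At day 5, 7 of 43 were higher (all genes, 13.6%) and 9 lower (all genes, 14.9%). At day 7, 4 of 41 were higher (all genes, 10.6%) and 13 lower (all genes, 21%). The count of 13 was 7 when the trend with transcript length was taken out and 6 with a TPM of at least 5. Shares of all genes under these alternatives are not given, so whether the members moved more than other genes cannot be told. Past 2-fold in 1 direction on 4 of the 5 days were Timp3 and Adam19 (lower) and Adamts5 (higher), each from day 1 to day 7. The share of all genes past 2-fold on as many days is not given here, so this is no result about the members as a set.

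Of the 51 members that were not tested, 21 had no count in any library, 12 had 1 to 9 counts in all and 18 had 10 or more. The 21 Adams of the reproductive tract were all in this group, and 15 of them had no count. The secreted Mmps without a count were Mmp1a, Mmp7, Mmp8 and Mmp21. At this depth such members were not detectable, which does not show that they were absent.

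Mmp1a, Mmp1b, Mmp3, Mmp7, Mmp8, Mmp10, Mmp12, Mmp13, Mmp20 and Mmp27, with the collagenases and stromelysins among them, form a cluster of 10 genes on chromosome 9, from 7272514 to 7699585. Of these 7 had a count in any library, the highest single count was 13, and none was tested. Their summed counts were 1.99, 8, 8, 9 and 15 in OKS + DsRed over days 0, 1, 3, 5 and 7 and 9, 19.9, 35, 26.0 and 19.5 in OKS + FoxO6. The sums were higher in OKS + FoxO6 on each day, in libraries that were also deeper on every day but day 7. Scaled to library size and summed over the days, the ratio of OKS + FoxO6 to OKS + DsRed was 1.91 for the stromelysin Mmp3 (95% exact interval 0.974 to 3.96), 1.98 for Mmp10 (0.883 to 4.86), 1.76 for Mmp12 (0.932 to 3.47) and 2.64 for Mmp13 (0.934 to 9.14). Each of these 4 intervals holds 1, and single days moved them. The ratio of Mmp10 was 1.13 (0.449 to 3.01) without day 3 and 6.24 (1.49 to 55.5) without day 7, and that of Mmp13 was 4.06 (1.15 to 21.9) without day 5. The interval of Mmp3 left out 1 without day 0 or day 1, and that of Mmp12 without day 5. Mmp12 is the elastase of macrophages, and the 10 macrophage markers summed to a TPM of 18.2 to 61.1 in OKS + DsRed and 23.9 to 31.2 in OKS + FoxO6. Of these, 7 had at most 3 counts in any library, none was at 0 in all, and Cd68, the 1 tested, had a log2 fold change of -0.51 (adjusted p = 0.363, edgeR). Their part in Mmp12 was not tested.

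The gelatinase Mmp9, on another chromosome, had 0 counts in each OKS + DsRed library and 7, 1, 3, 0 and 0 in OKS + FoxO6. The exact interval of the pooled ratio began at 1.95, and at 0.559 without day 0. It was singled out after its values were seen. Among the members not tested, the interval of the ratio left out 1 for Mmp9 and, all lower in OKS + FoxO6, Adam11, Adam33, Adam1a, Adamts17 and Adamts20. These intervals hold counting error only. How many other genes with few counts would do the same is not given here, so their number is no result about the members. Adamts20, a versicanase of the skin, had 59 counts in OKS + DsRed and 35 in OKS + FoxO6 (ratio 0.46, interval 0.294 to 0.71). Day 0 went the other way, with 1 count in OKS + DsRed and 13 in OKS + FoxO6, and without day 0 the ratio was 0.321 (0.187 to 0.533). With each day left out in turn, an alternative chosen after seeing the data, the intervals of Adamts20 and Adam1a still left out 1. Those of Mmp9 and Adam11 (ratio 0.377) held 1 without day 0, that of Adamts17 without day 3 (0.442) or day 7 (0.405), and that of Adam33 without day 0, 1 or 7. Adam1a shares its locus with Mapkapk5, so its reads are uncertain. Mmp23, with 17 and 36 counts at day 0, had at most 5 in any later library.

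**Figure D5:**
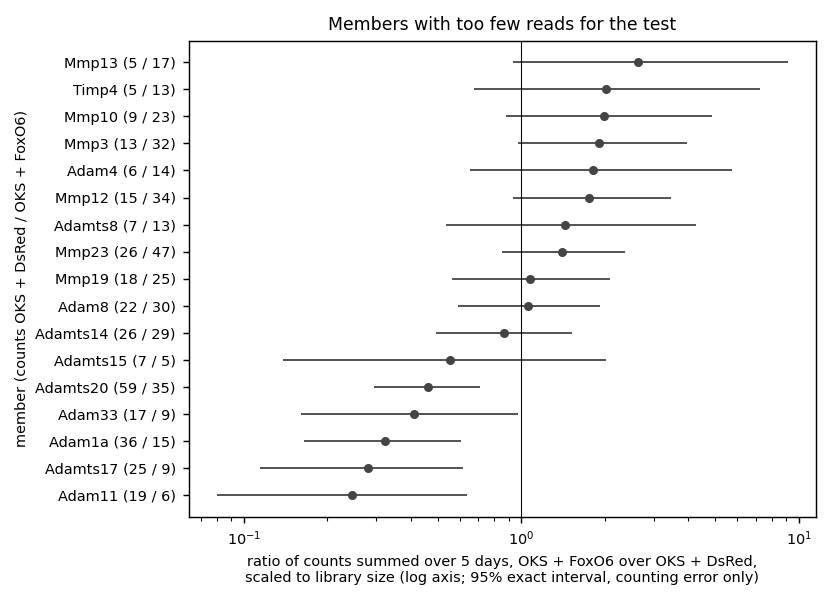
Ratio of counts (OKS + FoxO6 over OKS + DsRed, scaled to library size and summed over the 5 days, log axis) for 17 of the 18 members with at least 10 counts that were not tested, with 95% exact intervals for counting error only and the counts of each arm in brackets. Adam11, Adamts17, Adam1a, Adam33 and Adamts20 lie below 1 with their whole interval, and Mmp9 is left out because its ratio has no finite value.

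Forkhead proteins bind the core GTAAACA and AP-1 the sequence TGACTCA, and both were searched on either strand in the RefSeq windows. For each member only the window nearest the gene start was kept, while all windows were counted without such a cut. The shares below are therefore of unlike sets. The forkhead core was in 3.17% of all 32851 windows and in 3 of the 49 members' windows (Adam8, Mmp10 and Mmp13). None of the 18 windows of tested members held it. The AP-1 site was in 4.46% of all windows and in 8 of the members' 49, and 6 of those 8 (Mmp1a, Mmp1b, Mmp3, Mmp7, Mmp10 and Mmp13) belong to the chromosome 9 cluster that was nearly silent here. The windows of Mmp13 (chr9:7272264-7272513), Mmp3 (chr9:7445572-7445821) and Mmp10 (chr9:7502092-7502341), all on the plus strand, are shown as the ones with the most counts among these, with both motifs in capitals. The AP-1 site starts 35 bases before the start in Mmp13, 46 in Mmp3 and 63 in Mmp10, and the forkhead core starts 81 bases before it in Mmp13 and 199 in Mmp10, so that the motifs do not overlap.
Mmp13: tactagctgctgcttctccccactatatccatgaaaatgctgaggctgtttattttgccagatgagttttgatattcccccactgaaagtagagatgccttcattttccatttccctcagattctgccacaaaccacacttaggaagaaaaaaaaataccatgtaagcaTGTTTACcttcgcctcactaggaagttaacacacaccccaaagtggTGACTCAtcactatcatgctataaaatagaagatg
Mmp3: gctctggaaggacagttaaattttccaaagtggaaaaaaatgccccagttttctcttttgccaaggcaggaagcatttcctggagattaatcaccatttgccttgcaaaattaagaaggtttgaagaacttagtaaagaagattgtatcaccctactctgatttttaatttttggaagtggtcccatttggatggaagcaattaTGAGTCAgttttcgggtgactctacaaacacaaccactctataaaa
Mmp10: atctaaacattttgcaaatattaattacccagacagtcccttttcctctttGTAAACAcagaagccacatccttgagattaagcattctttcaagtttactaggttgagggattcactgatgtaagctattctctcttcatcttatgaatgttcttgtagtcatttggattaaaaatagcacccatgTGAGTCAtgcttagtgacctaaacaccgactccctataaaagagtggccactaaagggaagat
A match is only a run of letters and was not tested for binding.

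Other genes of the pathway were taken as lists. Of 21 regulators of proteolysis at the cell surface, 15 were tested, and 2 were higher and 3 lower in OKS + FoxO6, where 6.93% and 7.13% of all genes were. The higher ones were the convertase Furin, which removes the propeptide of membrane-type Mmps and Adams (log2 fold change 0.55, SE 0.11, adjusted p = 0.00708, edgeR), and Tspan5, a tetraspanin that brings Adam10 to the cell surface (0.97, SE 0.17, adjusted p = 0.00363, edgeR). The lower ones were Tspan15, another tetraspanin partner of Adam10 (-1.24, SE 0.36, adjusted p = 0.0407, edgeR), the convertase Pcsk6 (-0.78) and the protease inhibitor Serpine2 (-0.61). At day 7, 1 of the 15 was higher (Tspan14) and 5 were lower (all genes, 11.2% and 10.1%), among them Reck, a membrane inhibitor of Mmps, which fell by 2.05 (SE 0.35, adjusted p = 0.00151, edgeR). The list's median log2 fold change was -0.01 between the arms and -0.29 at day 7, beside -0.02 and 0.03 for all genes.

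Of 14 astacins and Adamts-like genes 9 were tested. Adamtsl1 and Papln were lower in OKS + FoxO6 (7.13% of all genes were) and none was higher. At day 7, 5 were lower (10.1% of all genes were) and none higher, among them Bmp1, the procollagen C-proteinase, which fell by 1.21. The list's median log2 fold change was 0.08 between the arms and -0.95 at day 7. Of 20 proteins that Adam10 or Adam17 release from the cell surface 14 were tested. Tgfa and Tnfrsf1a were higher in OKS + FoxO6 (6.93% of all genes were), and Notch1, Cdh1, Cd44 and Sdc1 were lower (7.13%). At day 7 Cdh1 and Il6ra were higher (11.2%) and Hbegf, Ereg, Cd44 and App lower (10.1%), and the list's medians were 0.12 between the arms and -0.40 at day 7. Cdh1 is also an epithelial marker. The 3 tested epithelial markers of 7 (Cdh1, Epcam and Krt8) were all lower in OKS + FoxO6, with a summed TPM of the 7 of 12.1 to 660 in OKS + DsRed and 3.66 to 150 in OKS + FoxO6. Pluripotent markers summed to a TPM of 1.31 to 307 and 0.71 to 51.03, and Lin28a had no more than 3 counts. Of the fibroblast markers Pdgfra and Twist1 were higher and Col3a1 and Prrx1 lower in OKS + FoxO6. The 7 endothelial markers summed to a TPM of 22.6 to 56.3 in OKS + DsRed and 33.6 to 105 in OKS + FoxO6. Most of this sum was Tek, with a TPM of 16.8 to 47.3 and 27.6 to 104, so it does not speak for the list. At day 7 Pecam1 and Vwf went the other way, with a TPM of 5.73 and 3.28 in OKS + DsRed and 0.76 and 0.43 in OKS + FoxO6. Emcn and Erg had no more than 3 counts. Tek, the 1 tested, was higher in OKS + FoxO6 (log2 fold change 0.95, adjusted p = 0.00114, edgeR). The part of these cell states in the shifts of the members was not tested.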

How the data were processed

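RNA-seq was measured in 10 libraries, 1 per arm and day, grouped by their labels. The authors ran RSEM with bowtie2 on GENCODE M13 (mm10). They deposited expected counts that are not normalized, TPM, and FPKM, which was not used here. The kit is TruSeq in the methods and VAHTS in the labels, and strand use is not given in the sources used here. The members and lists were chosen with earlier results of these data known. Expected counts were rounded and tested in R 4.3.3 with edgeR 4.0.16 (TMM, filterByExpr by arm, quasi-likelihood test, Benjamini-Hochberg). The unit of a daily difference was log2(TPM + 1). Ratios of counts carry exact binomial intervals. Python 3.11.15 with scipy 1.17.1 and statsmodels 0.14.6 was used, and the tests were checked on simulated data. Members given in every library are all Timps, those past a threshold, the highest 3 by mean TPM of the secreted Mmps, membrane-type Mmps, Adams and Adamts, and those past 2-fold on 4 days. Other members are given by counts and ranges, and members not tested, with the shown windows, were picked after their values were seen. Alternatives were DESeq2 1.42.0 and its size factors, no filter, an offset for transcript length, other day or arm terms, each day left out, and other TPM limits. Coordinates are GENCODE M21 on GRCm38. No windows before Mmp2, Adam9 and Adamts5 are shown.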

Additional observations from a re-analysis of the deposited data

How the results depend on the processing

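With 1 library per arm and day, 51 of 79 members could not be tested, and low members rest on a few reads. No member's call reversed its direction under the alternatives run. Of the 28 tested members, 5 with small, uncalled shifts between the arms (log2 fold change 0.00 for Adam15, -0.03 for Adam22, 0.05 for Adamts2, 0.02 for Mmp28 and -0.22 for Adam12) changed sign. With each day left out their ranges were -0.0794 to 0.0628 for Adam15, -0.198 to 0.128 for Adam22, -0.355 to 0.242 for Adamts2, -0.198 to 0.188 for Mmp28 and -0.361 to 0.0893 for Adam12, with no value for Adamts2 without day 0. Adam15 was at -0.00515 with DESeq2's size factors, -0.00517 with DESeq2 and -0.0124 with the offset for length. Adam22 was at 0.00725 with no filter, Adamts2 at -0.0082 with no day term, and Adamts2 and Mmp28 at -0.0367 and -0.0374 with day as a straight line. At day 7 Adamts4 was at -0.04, and at 0.0915 with no arm term. Of the shift between the arms, 5 members were higher and 4 lower. These counts were 3 and 4 with an offset for length, 0 and 1 with no day term, and 1 and 2 with day as a straight line. With each day left out, 1 to 4 were higher and 2 to 4 lower. Over all genes 1544 were called, 168 with no day term, 770 with day as a straight line and 663 to 1569 with each day left out. At day 7 against day 0, 3 members were higher, 1 with DESeq2, 5 with no filter, 0 with no arm term and 0 to 1 with days 1, 3 and 5 left out in turn. The 9 lower members became 4 with no arm term, and the 2332 genes called became 1148. For the slopes, DESeq2 called 33 genes, the fit with no filter 6, and leaving out each day gave 0 to 1. The daily counts of members past 2-fold fell with a TPM of at least 5. They were 0 higher and 0 lower at day 0, 3 and 5 at day 1, 4 higher at day 3, 4 lower at day 5 and 6 lower at day 7. With the length trend taken out, 5 were lower at day 0, and 7 were higher and 7 lower at day 7. For these daily counts the shares of all genes under the same alternatives are not given. Causes of these moves were not tested, beyond the fewer genes or libraries of some alternatives. The test of the arms pairs the libraries by day, and the fits with no day term and with day as a straight line lack this pairing.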
